A study of Homo sapiens with 6 samples.

Results

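The 80 genes described here encode ATP-dependent chromatin remodellers, histone methyltransferases and demethylases, and the bromodomain, AT-rich interaction domain (ARID) and ASXL proteins that work with them. They were taken by a symbol pattern from the CHD, SMARC, KDM, KMT, ARID, BAZ, BRD, SETD and ASXL genes named in both of the authors' deposited tables. The pattern does not match some such symbols, among them ARID2, KDM8 and SMARCAD1, and the Y-linked KDM5D was left out too. The set holds 80 of 58302 genes. RNA immunoprecipitation followed by sequencing (RIP-seq), in which an antibody pulls down a protein with the RNA bound to it, was carried out in HepG2, a human liver cancer cell line. Of the 6 libraries, 2 came from a PABPC4 antibody in HepG2 cells overexpressing PABPC4, 2 from a PABPC1 antibody in cells overexpressing PABPC1, and 2 from rabbit IgG, 1 in each of these cell populations. No library of total RNA was used here, so a difference in binding and a difference in the amount of an mRNA between the cell populations cannot be told apart. For the PABPC4 and PABPC1 RIPs the labels do not tell whether the 2 libraries go back to different cultures. Part or all of their variation may be technical. Between the 2 IgG libraries, variation among replicates and a difference between the cell populations cannot be told apart. The tests across libraries cover no more than the variation among these 6.

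PABPC1 and PABPC4 are cytoplasmic proteins that bind the poly(A) tail of mRNAs and act in their translation and stability. Remodellers of the SWI/SNF, ISWI and CHD families use ATP to slide, space or evict nucleosomes, KMT and SETD enzymes place methyl groups on histones and other proteins, KDM enzymes remove them, and bromodomain proteins bind acetylated histones. ARID1A is among the genes recurrently mutated in liver cancer.

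The deposited tables hold a fold and a p-value per gene, and the whole reads behind them were recovered from those values. The recovered totals were 850190 and 841327 reads in the PABPC4 RIPs, 289217 and 277552 in the PABPC1 RIPs, and 133030 and 94235 in IgG, and both tables used the same pooled pair of IgG libraries. Within a group the library with more reads is called A and the other B, since the values carry no replicate number. Nuclear-encoded genes with reads assigned to libraries held 78.4% and 77.0% of the reads in the PABPC4 RIPs, 53.1% and 58.6% in the PABPC1 RIPs, and 38.5% and 40.4% in IgG. All 10 markers of HepG2 and hepatocytes had reads, summing to 8992 and 9636 RPM (reads divided by the library total, scaled to a common total) in the PABPC4 RIPs, 6656 and 7498 in the PABPC1 RIPs, and 4225 and 4064 in IgG. The 7 blood cell markers ran the other way, with 740 and 586 RPM in the PABPC4 RIPs, 1293 and 1427 in the PABPC1 RIPs, and 3608 and 3661 in IgG, and their part in the results was not tested. With shares of nuclear-gene reads this unequal, a gene can be above IgG per total read and still be at the level of the median gene.

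Of the 80 genes, 76 had at least 1 read in some library, and 4 had none (ARID3C, KDM4D, KDM4E and KDM4F). The reads of 75 could be assigned to single libraries, and 69 had at least 10 reads in at least 2 libraries and entered the test across libraries. Together the genes took 1.63% and 1.59% of the nuclear-gene reads in the PABPC4 RIPs, 1.33% and 1.34% in the PABPC1 RIPs, and 1.31% and 1.25% in IgG. Both PABPC4 libraries were above all 4 others, while the PABPC1 libraries lay close to IgG.

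In the authors' deposited table for PABPC4 over IgG, 32 of the 76 genes with a read were higher at an adjusted p under 0.05, against a background of 5.54% of all 21455 genes tested, and 0 were lower, against 0.9% of all genes. Without IgG library A the count was 15, against 2.2% of all genes, and without IgG library B it was 21, against 3.85%. The 32 genes called as deposited all had at least 200 reads, summed over the PABPC4 and IgG libraries. Most of these reads come from PABPC4, so a gene high with PABPC4 passes this cut more easily. This limits all shares at that depth, here and below. Among genes with as many reads, the deposited table called 32 of 38 of the chromatin genes (84.2%) and 66.6% of all 1465 higher, so these shares lay closer together than those over all depths; 0 were lower, against 0.683%. In the authors' deposited table for PABPC1 over IgG, 2 of 74 were higher, ARID4B among them, against a background of 1.34%, and 0 were lower, against 0.194%. Leaving out either IgG library, or the B library of PABPC1, ended both calls. The PABPC4 table rests on 1691517 RIP reads and the PABPC1 table on 566769. At 200 reads or more over the PABPC1 and IgG libraries, the PABPC1 table covered 4 of the chromatin genes. It called 1 of them higher, against 50.4% of all 240 genes, and 0 lower, against 2.92%.

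How far the genes stood above IgG depended on what the reads were divided by. Per total read, the median log2 ratio of PABPC4 over IgG was 1.27 over the 71 genes with at least 20 reads, against 0.98 over all 8285 genes with as many. Taken relative to the median gene, 48 of the 71 genes (67.6%) stayed above IgG, with a median of 0.29. For PABPC1 over IgG the median per total read was 0.50 over 59 genes, against 0.57 over all 4484 genes. Relative to the median gene it was -0.065, and 27 of the 59 genes (45.8%) were above IgG.

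With the chi-square test scaled to the median gene, 4 of the 32 genes remained higher in the PABPC4 RIP than in IgG: ARID4B, BAZ1B, CHD7 and SMARCC1. Over all 17144 genes this test called 0.642% higher and 2.62% lower. A limma voom fit on the reads of single libraries was scaled by median-of-ratios size factors over the 6 libraries. This scaling differs somewhat, and left 53.9% of all genes above IgG with PABPC4. The fit called the same 4 genes higher among 69, against a background of 2.36% of 7957 genes, and 0 lower, against 1.63%. At an unadjusted p under 0.05 it had 12 higher, against 10.4% of all genes, and 1 lower, against 7.11%. The same fit for PABPC1 over IgG called 0 of the 69 genes either way, against 0.515% of all genes higher and 0.415% lower. With no adjustment, at a p under 0.05, 2 were higher, against 7.67% of all genes, and 1 was lower, against 5.29%.

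**Figure D1:**
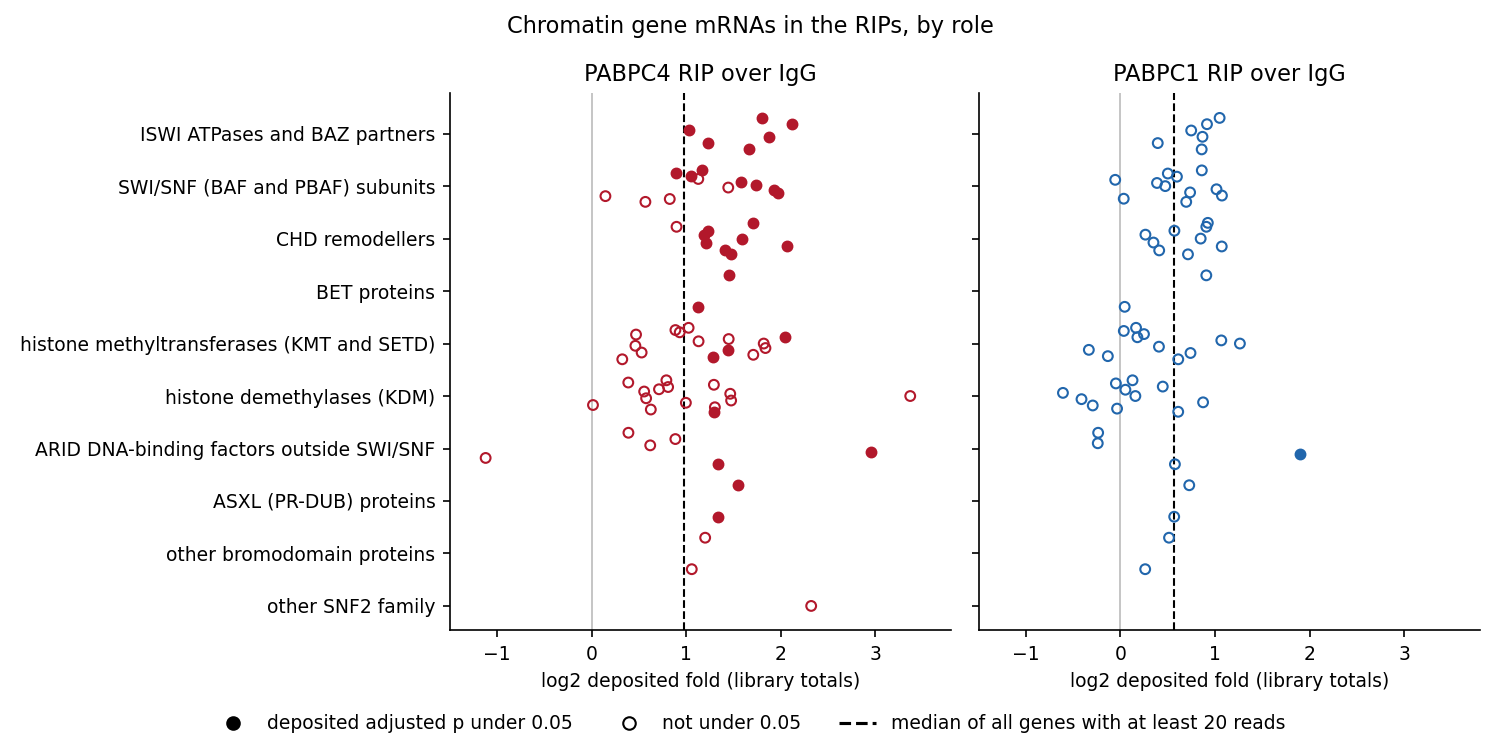
Log2 fold over IgG in the authors' deposited tables for each gene with at least 20 reads in the comparison, by role, with PABPC4 on the left and PABPC1 on the right. Points are genes, filled where the deposited adjusted p is under 0.05 (31 of the plotted genes with PABPC4, and ARID4B with PABPC1). The dashed line is the median of all genes with as many reads, 0.98 and 0.57, taken on summed reads per total read and not on deposited folds.

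The PABPC4 and PABPC1 RIPs were then set against each other with the voom fit over all 6 libraries, which is scaled so that the median gene lies at 0. In that fit 4 of the 69 genes were higher with PABPC4 (SMARCC1, BAZ1B, SMARCA4 and SMARCA2), against a background of 2.4% of 7957 genes, and 0 were lower, against 2.07%. These calls were not kept without PABPC1 library A or B, in fits that leave 1 PABPC1 library and call few of all genes. With limma-trend in place of voom 0 of the genes were called, against 0.226% of all genes higher. Scaling by library totals gave 36 calls, against 13.95% of all genes higher. The log2 fold was above 0 for 55 of the 69 genes (79.7%), against 50.1% of all genes, and its median was 0.28, against 0.00. The PABPC4 libraries hold the most reads, so a gene high with PABPC4 passes the read filter of the fit more easily. This limits all shares from the fit, for the chromatin genes and for all genes alike. At an unadjusted p under 0.05, 14 were higher, against a background of 8.55%, and 1 was lower, against 7.87%. On summed reads per total read, the median log2 ratio was 0.76 over the 53 genes with at least 20 PABPC1 reads, against 0.39 over all 3621 genes. Relative to the median gene, 45 of these 53 were above 0.

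**Figure D2:**
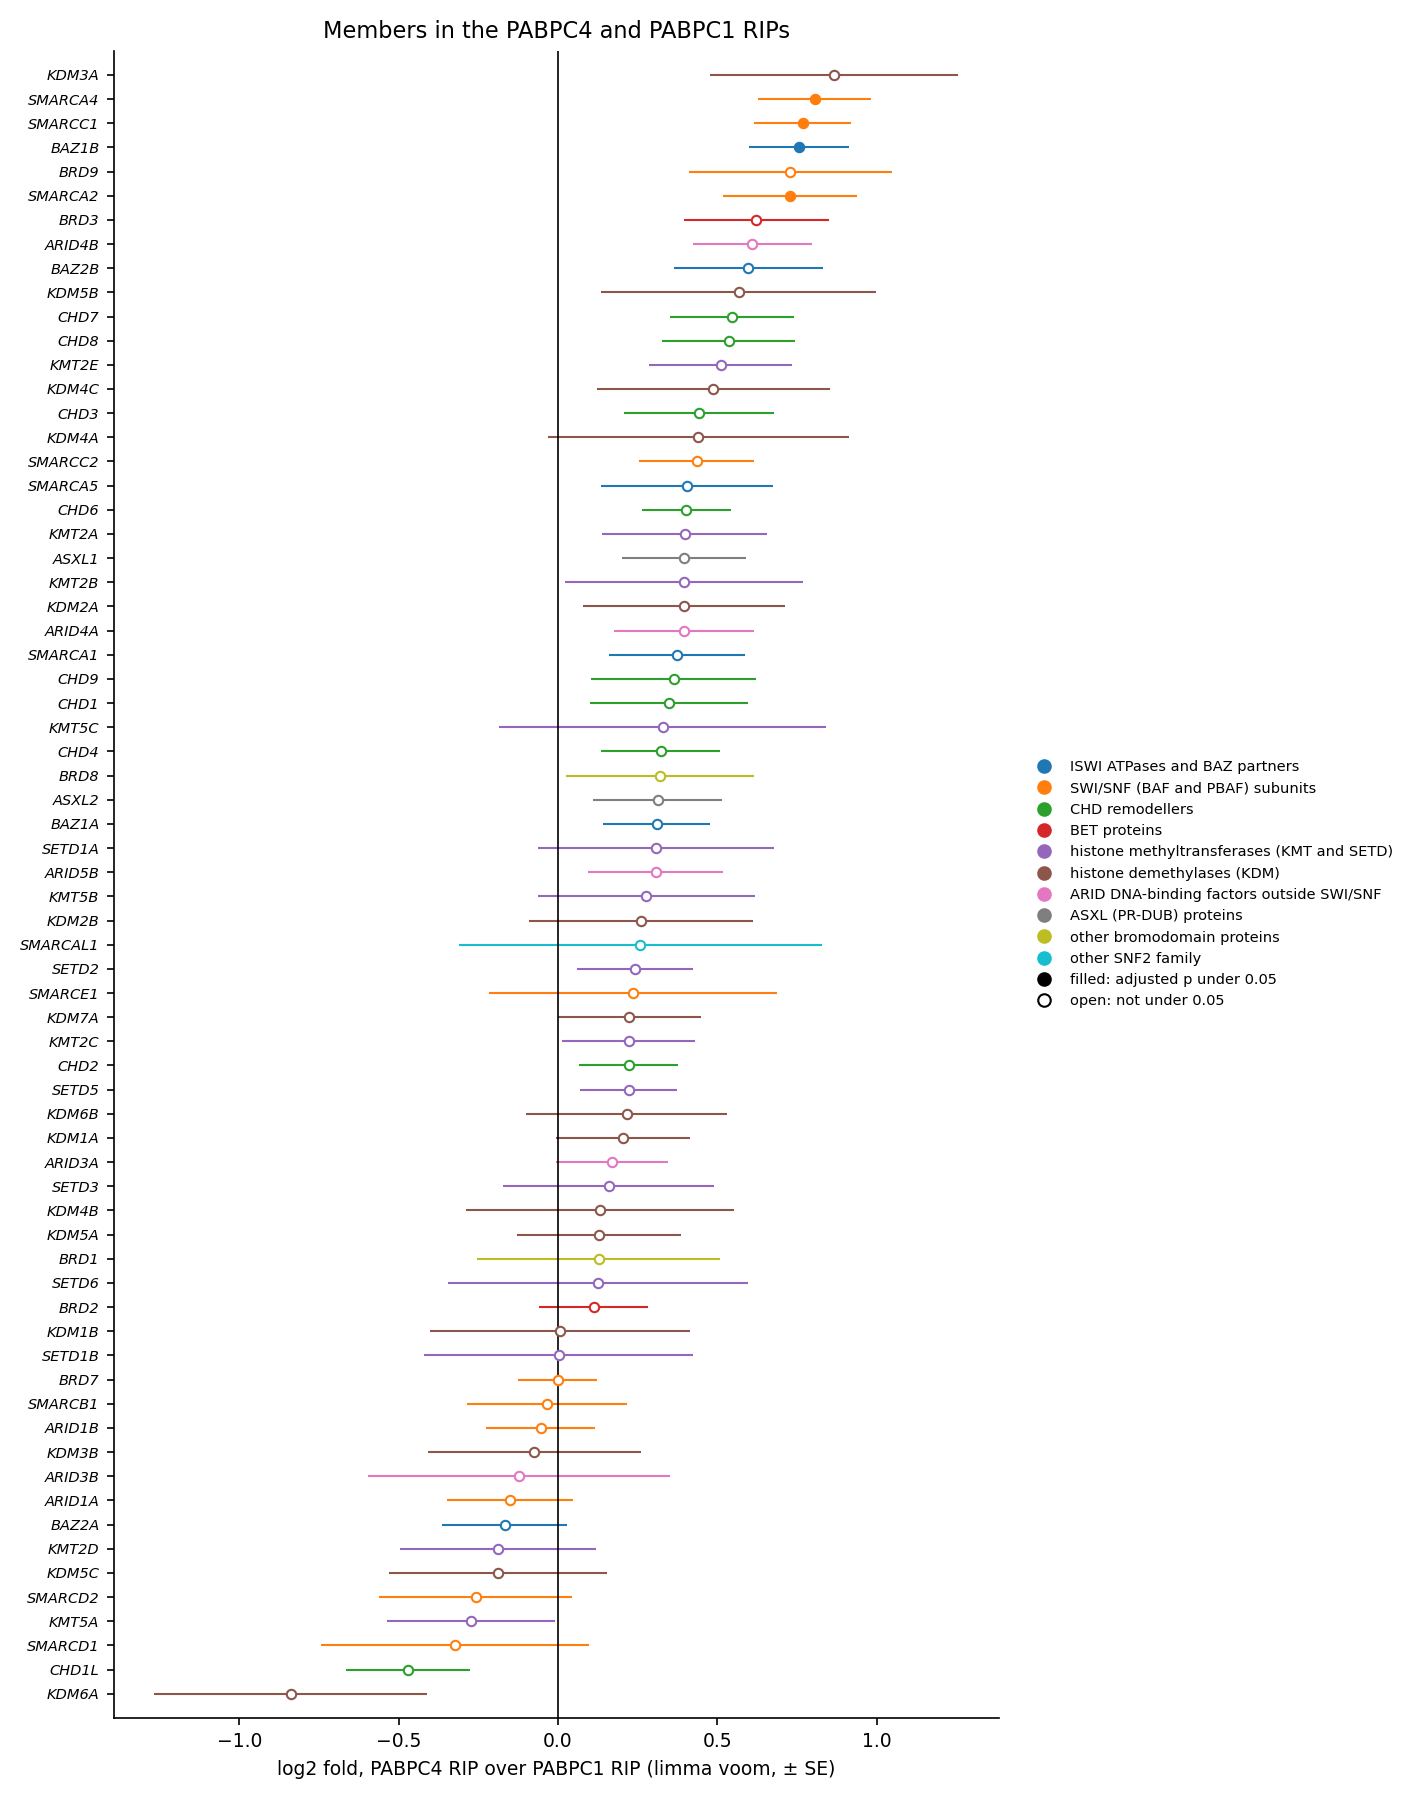
Log2 fold of PABPC4 RIP over PABPC1 RIP (limma voom, ± SE) for 68 genes in the fit, sorted by size and coloured by role. Filled points have an adjusted p under 0.05; 54 points lie right of 0, and the 4 filled ones are SMARCA4, SMARCC1, BAZ1B and SMARCA2.

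In the SWI/SNF family, 3 of the 12 fitted genes were higher with PABPC4 than with PABPC1: SMARCC1, SMARCA4 and SMARCA2. SMARCC1 (chromosome 3, 47585269 to 47781893, GRCh38.p14) encodes BAF155, a scaffold on which the complex is built. After division by the median-of-ratios size factor, which applies to all scaled reads given here, SMARCC1 had 133 and 124 scaled reads in the PABPC4 RIPs, 62.6 and 89.2 in the PABPC1 RIPs, and 58.8 and 60.2 in IgG. Both PABPC4 libraries were above the other 4, and the PABPC1 libraries were above both IgG libraries. Its log2 fold of PABPC4 over PABPC1 was 0.77 ± 0.15 (SE, limma voom, adjusted p = 0.00114), and in the authors' deposited table PABPC4 over IgG was 3.81-fold (adjusted p = 2.92e-14).

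SMARCA4 (chromosome 19, 10961030 to 11062273) and SMARCA2 (chromosome 9, 2015347 to 2193620) encode BRG1 and BRM, the alternative ATPases of the complex. SMARCA4 had 87.7 and 80.9 scaled reads in the PABPC4 RIPs, 46.1 and 49.3 in the PABPC1 RIPs, and 49.6 and 40.1 in IgG. SMARCA2 had 59.2 and 51.0 in the PABPC4 RIPs, 34.0 and 31.5 in the PABPC1 RIPs, and 37.2 and 28.1 in IgG. For both genes the PABPC4 libraries were the highest, and the PABPC1 range lay within the IgG range. The log2 fold of PABPC4 over PABPC1 was 0.81 ± 0.18 for SMARCA4 (SE, limma voom, adjusted p = 0.0036) and 0.73 ± 0.21 for SMARCA2 (adjusted p = 0.0384).

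The other SWI/SNF subunits were not called between the RIPs, and the family's median log2 fold of PABPC4 over PABPC1 over its 12 fitted genes was 0.12. BRD7, a bromodomain subunit of the PBAF form, had 116 and 121 scaled reads in the PABPC4 RIPs, 120 and 116 in the PABPC1 RIPs, and 102 and 100 in IgG. The BRD7 libraries of both RIPs shared 1 range, and both were above IgG. ARID1A and ARID1B, alternative large subunits of the BAF form, had log2 folds of -0.15 ± 0.20 and -0.05 ± 0.17 (limma voom, adjusted p = 0.774 and 0.922). ARID1B had 59.7 and 56.8 scaled reads in the PABPC4 RIPs, 69.2 and 52.5 in the PABPC1 RIPs, and 58.8 and 52.2 in IgG, so that all groups overlapped. SMARCC2, which encodes the BAF170 scaffold, had 70.8 and 62.6 scaled reads in the PABPC4 RIPs, 50.5 and 47.2 in the PABPC1 RIPs, and 27.9 and 32.1 in IgG, with no overlap between groups. Its log2 fold of PABPC4 over PABPC1 was 0.44 ± 0.18 (limma voom, adjusted p = 0.188).

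Against IgG, the authors' deposited table called 7 of the 13 SWI/SNF genes higher with PABPC4: SMARCC1, SMARCC2, SMARCA4, SMARCA2, BRD7, ARID1A and ARID1B. These were the 7 with at least 200 reads, a depth at which 66.6% of all genes were called, against 5.54% over all depths. The lowest PABPC4 fold of the family among genes with at least 20 reads was 1.11, for SMARCD1, an accessory subunit, in that deposited table (adjusted p = 1). SMARCD1 rested on 48 PABPC4 reads and 6 IgG reads. ARID1B was 1.85-fold over IgG in the deposited table (adjusted p = 0.0159), the lowest called fold of the set. It lay near 1 with other scalings, at 0.940 on summed reads shifted to the median gene and at 1.01 in the voom fit. The ARID1B call was lost without IgG library A or B. The remaining members of the family, SMARCB1, SMARCD2, SMARCD3, SMARCE1 and BRD9, were not called against IgG with either antibody.

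The ISWI ATPases and the BAZ proteins that partner them were the family with the highest median log2 fold of PABPC4 over PABPC1 (0.39) among families of 3 or more fitted genes. BAZ1B (chromosome 7, 73440406 to 73522293) encodes WSTF, a partner of the ISWI ATPase SMARCA5 and a histone kinase. BAZ1B had 120 and 110 scaled reads in the PABPC4 RIPs, 60.4 and 75.5 in the PABPC1 RIPs, and 58.8 and 36.1 in IgG. The 3 groups did not overlap, with PABPC4 highest and IgG lowest. Its log2 fold of PABPC4 over PABPC1 was 0.76 ± 0.16 (SE, limma voom, adjusted p = 0.00203), and in the authors' deposited table PABPC4 over IgG was 4.32-fold (adjusted p = 1.61e-13).

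All 6 genes of this family were called higher with PABPC4 than with IgG in the deposited table, with folds between 2.04 and 4.32, and 0 with PABPC1. All 6 had at least 200 reads, where 66.6% of all genes were called with PABPC4. BAZ1A, the ACF1 subunit, had 73.2 and 73.7 scaled reads in the PABPC4 RIPs, 69.2 and 50.4 in the PABPC1 RIPs, and 34.1 and 40.1 in IgG. Both RIPs were above IgG for BAZ1A, and 1 PABPC1 library came close to the PABPC4 pair. The ATPase genes SMARCA1 and SMARCA5 had log2 folds of PABPC4 over PABPC1 of 0.37 ± 0.21 and 0.40 ± 0.27 (limma voom, adjusted p = 0.4 and 0.493). BAZ2A, which encodes TIP5 of the nucleolar remodelling complex, was the 1 gene of the family below 0, at -0.17 ± 0.20 (adjusted p = 0.745). BAZ2B, its paralog, was at 0.60 ± 0.23 (adjusted p = 0.161).

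**Figure D3:**
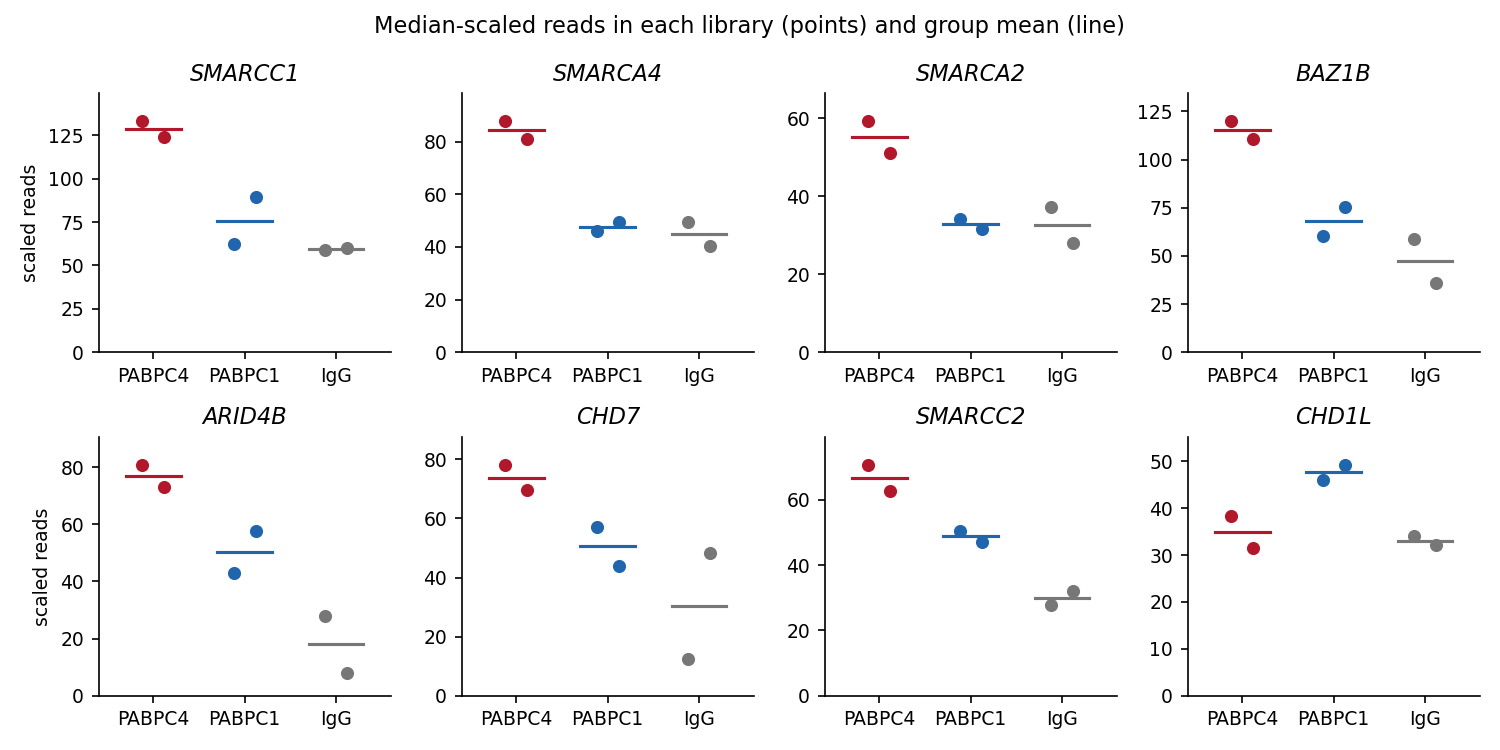
Scaled reads (reads divided by the median-of-ratios size factor) of 8 genes in the 2 PABPC4, 2 PABPC1 and 2 IgG libraries, 1 point per library with a bar at the group mean. SMARCC1, SMARCA4, SMARCA2 and BAZ1B have both PABPC4 libraries above the other 4, as do ARID4B, CHD7 and SMARCC2, and CHD1L has both PABPC1 libraries above the PABPC4 pair.

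Among the CHD genes, 8 of 10 were called higher with PABPC4 than with IgG in the authors' deposited table, and CHD1L and CHD5 were not. Of the 9 CHD genes with at least 200 reads 8 were called, where 66.6% of all genes were. CHD7, which encodes a remodeller that acts at enhancers and is mutated in CHARGE syndrome, had 78.2 and 69.5 scaled reads in the PABPC4 RIPs, 57.1 and 44.1 in the PABPC1 RIPs, and 12.4 and 48.2 in IgG. The PABPC4 libraries were the highest, and 1 PABPC1 library lay below the higher IgG library, whose pair differed by more than that of either RIP. The deposited fold of CHD7 in the PABPC4 table was 4.19 (adjusted p = 3.04e-09). It was 2.6 without IgG library A and 11.0 without IgG library B, and still called. The log2 fold of PABPC4 over PABPC1 was 0.55 ± 0.20 (limma voom, adjusted p = 0.114).

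CHD6 and CHD2 had the most reads of the family. CHD6 had 115 and 111 scaled reads in the PABPC4 RIPs, 86.8 and 82.9 in the PABPC1 RIPs, and 92.9 and 80.3 in IgG, so that PABPC4 stood above and the PABPC1 pair lay inside the IgG range. Its log2 fold of PABPC4 over PABPC1 was 0.40 ± 0.14 (limma voom, adjusted p = 0.101). CHD2 had 106 and 90.6 in the PABPC4 RIPs, 74.7 and 93.4 in the PABPC1 RIPs, and 92.9 and 56.2 in IgG, and all groups overlapped. CHD3 and CHD4, the ATPases of the NuRD complex, had log2 folds of 0.44 ± 0.24 and 0.32 ± 0.19, and CHD8, a remodeller mutated in autism, had 0.54 ± 0.21 (limma voom, adjusted p = 0.358, 0.412 and 0.16).

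CHD1L, the remodeller ALC1, which is activated by poly(ADP-ribose), ran the other way from its family. It had 38.3 and 31.4 scaled reads in the PABPC4 RIPs, 46.1 and 49.3 in the PABPC1 RIPs, and 34.1 and 32.1 in IgG. Both PABPC1 libraries were above the other 4, and the PABPC4 and IgG pairs overlapped. Its log2 fold of PABPC4 over PABPC1 was -0.47 ± 0.19 and did not pass the adjusted threshold (limma voom, adjusted p = 0.192). CHD5 had 6 PABPC4 reads, 2 PABPC1 reads and 2 IgG reads in all.

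BRD2 and BRD3 encode readers of acetylated histones of the BET family, which recruit elongation factors. BRD2 had 71.9 and 70.0 scaled reads in the PABPC4 RIPs, 56.0 and 75.5 in the PABPC1 RIPs, and 65.0 and 28.1 in IgG, and the PABPC1 pair spanned the PABPC4 pair and overlapped IgG. BRD3 had 49.9 and 41.8 in the PABPC4 RIPs, 25.3 and 33.6 in the PABPC1 RIPs, and 34.1 and 40.1 in IgG, with PABPC4 highest and PABPC1 lowest and no overlap. Both were called with PABPC4, at 2.73-fold and 2.17-fold in the authors' deposited table, and not with PABPC1. The BRD2 call was lost without IgG library B (2.01-fold, and 4.27-fold without A) and the BRD3 call without either. The log2 fold of PABPC4 over PABPC1 was 0.11 ± 0.17 for BRD2 and 0.62 ± 0.23 for BRD3 (limma voom, adjusted p = 0.81 and 0.124). Outside the BET family, BRD8 and BRD1, bromodomain subunits of acetyltransferase complexes, were not called with either antibody.

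ARID4B, a subunit of the SIN3 and HDAC corepressor, was called with both antibodies and had the largest PABPC4 fold among the called genes. It had 306 and 276 reads in the PABPC4 RIPs, 39 and 55 in the PABPC1 RIPs, and 9 and 2 in IgG, which is 80.8 and 72.9, 42.8 and 57.7, and 27.9 and 8.03 scaled reads in the same order of libraries. The groups did not overlap, with PABPC4 highest and IgG lowest. In the authors' deposited tables ARID4B was 7.73-fold over IgG with PABPC4 (adjusted p = 1.29e-11) and 3.74-fold with PABPC1 (adjusted p = 0.00732). Without IgG library A the PABPC4 fold was 16.2 and the PABPC1 fold 7.81, and without IgG library B they were 5.09 and 2.45. The PABPC4 call held in both, and the PABPC1 call was lost in both (recomputed chi-square, adjusted p = 0.174 and 0.538). With 11 IgG reads in all, the 95% interval of the PABPC4 ratio on summed reads ran from 3.94 to 14.3, and that of the PABPC1 ratio from 1.83 to 7.10. These intervals, like all ratio intervals and deposited p-values given here, cover counting error only. The log2 fold of PABPC4 over PABPC1 was 0.61 ± 0.19 (limma voom, adjusted p = 0.053), just outside the threshold.

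The other ARID genes outside SWI/SNF did not share a pattern. ARID5B, a partner of the demethylase PHF2, was 2.53-fold over IgG with PABPC4 in the authors' deposited table (adjusted p = 0.00395), a call lost without either IgG library. ARID3A, a transcription factor with the most reads after ARID4B, had 59.2 and 65.8 scaled reads in the PABPC4 RIPs, 60.4 and 50.4 in the PABPC1 RIPs, and 71.2 and 96.3 in IgG, so that both IgG libraries were the highest. ARID5A, an RNA-binding protein that stabilises inflammatory mRNAs, had the lowest PABPC4 fold of all genes with at least 20 reads, 0.459 in the deposited table (adjusted p = 0.866). ARID5A rested on 17 PABPC4 reads and 5 IgG reads, and the 95% interval of its ratio ran from 0.162 to 1.58.

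The enzymes that write and erase histone methylation follow. Of the 17 methyltransferase genes, the deposited table called 3 higher with PABPC4: SETD2, which trimethylates lysine 36 of histone H3, SETD5, and KMT2E, a member of the MLL family. At 200 reads or more these were 3 of 5, where 66.6% of all genes were called. SETD2 and KMT2E were not called without IgG library A. SETD5 had 95.1 and 85.4 scaled reads in the PABPC4 RIPs, 85.7 and 69.2 in the PABPC1 RIPs, and 71.2 and 60.2 in IgG, and SETD2 had 56.0 and 56.6 in the PABPC4 RIPs, 49.4 and 45.1 in the PABPC1 RIPs, and 37.2 and 36.1 in IgG. For SETD2 the groups did not overlap, while for SETD5 the PABPC1 pair overlapped both other groups. KMT2E had the highest called fold of the family, 4.13 in the deposited table (adjusted p = 0.000119), from 306 PABPC4 reads and 10 IgG reads. None of the 14 fitted methyltransferase genes was called between the RIPs, and their median log2 fold of PABPC4 over PABPC1 was 0.23. KMT5A, which monomethylates lysine 20 of histone H4, had the highest PABPC1 fold after ARID4B among genes with at least 20 reads, 2.4 in the deposited table, from 42 PABPC1 reads and 7 IgG reads (adjusted p = 0.63). SETD1A, a lysine 4 methyltransferase of histone H3, was among the 3 lowest at 0.793-fold in that table (adjusted p = 1).

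Of the 15 demethylase genes with a read, the deposited table called KDM7A higher with PABPC4, at 2.46-fold (adjusted p = 0.0126), and 0 with PABPC1. It was 1 of the 2 with at least 200 reads, and its call was lost without IgG library A or B. KDM7A, which removes methyl groups from lysines 9 and 27 of histone H3, had 34.1 and 35.7 scaled reads in the PABPC4 RIPs, 31.9 and 27.3 in the PABPC1 RIPs, and 21.7 and 28.1 in IgG. KDM1A, the amine oxidase LSD1, had the most reads of the family, with 40.9 and 37.8 in the PABPC4 RIPs, 31.9 and 35.7 in the PABPC1 RIPs, and 40.3 and 40.1 in IgG. For KDM1A the PABPC1 pair was the lowest and the PABPC4 and IgG pairs were close together.

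KDM4B, a lysine 9 demethylase, had the highest PABPC4 fold of all 71 genes, 10.3 in the deposited table (adjusted p = 0.151), but it rested on a single IgG read, and the 95% interval of its ratio ran from 1.56 to 361. KDM3A and KDM6A marked both ends of the range of PABPC4 over PABPC1. KDM3A, a lysine 9 demethylase induced by hypoxia, had 15.6 and 13.7 scaled reads in the PABPC4 RIPs, 11.0 and 5.25 in the PABPC1 RIPs, and 15.5 and 16.1 in IgG, and its log2 fold of PABPC4 over PABPC1 was 0.87 ± 0.39 (limma voom, adjusted p = 0.243). KDM6A, the lysine 27 demethylase UTX, had 6.34 and 3.70 in the PABPC4 RIPs, 6.59 and 10.5 in the PABPC1 RIPs, and 3.10 and 4.01 in IgG, at -0.84 ± 0.43 (adjusted p = 0.33). Neither passed the threshold, and both had under 20 PABPC1 reads in all. KDM3A and KDM4C, a paralog of KDM4B, also had the lowest PABPC1 folds, 0.656 and 0.752 in the deposited table (adjusted p = 1 for both). KDM5C, a lysine 4 demethylase, had a PABPC4 fold of 1.01 in the deposited table (adjusted p = 1).

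ASXL1 and ASXL2, which activate the BAP1 deubiquitinase, were both called with PABPC4, at 2.92-fold and 2.52-fold in the deposited table (adjusted p = 4.19e-05 and 0.00211). Both calls were lost without IgG library A, and that of ASXL2 also without IgG library B. ASXL1 had 57.3 and 59.2 scaled reads in the PABPC4 RIPs, 56.0 and 34.6 in the PABPC1 RIPs, and 34.1 and 36.1 in IgG. One PABPC1 library of ASXL1 lay near the PABPC4 pair and the other within the IgG range. The reads of ASXL3 could not be settled, and it was not called. SMARCAL1, which anneals single-stranded DNA at stalled replication forks, was 4.99-fold over IgG with PABPC4 in the deposited table (adjusted p = 0.854), from 32 PABPC4 reads and 1 IgG read.

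Per length, on the recovered gene models, the level of the 71 genes in the PABPC4 RIPs ranged up to 75.2 RPKM (reads scaled to library total and length) for SMARCC1, followed by BAZ1B at 73.1 and BRD7 at 62.4. The genes have long models: their median was 8727 nt, against 5625 nt over all 7957 fitted genes, and 62 of 69 (89.9%) were over 5000 nt, against 57.9% of all genes. Across the 69 genes, log10 length and the log2 fold of PABPC4 over PABPC1 had a Pearson r of 0.27 and a Spearman rho of 0.29, as a description over genes that share the same 6 libraries. Across all 7957 genes r was 0.01. Among all genes over 8168 nt, the median log2 fold was 0.03 over all 1989 genes and 0.36 over the 40 chromatin genes there. The share of all genes called higher with PABPC4 did rise with length. It was 3.67% of these 1989 genes, against 1.71% of the 1990 genes up to 3687 nt. The background of 2.4% over all genes, set against the 4 calls, does not allow for length. Read number, summed over the 6 libraries, also moved with the fold among the 69 genes (r = 0.34, rho = 0.31). Across all 7957 genes r was 0.02 and rho 0.04. Most of these reads come from PABPC4, so a gene higher with PABPC4 has more of them by construction. The part of read number in the difference from other genes was not tested.

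**Figure D4:**
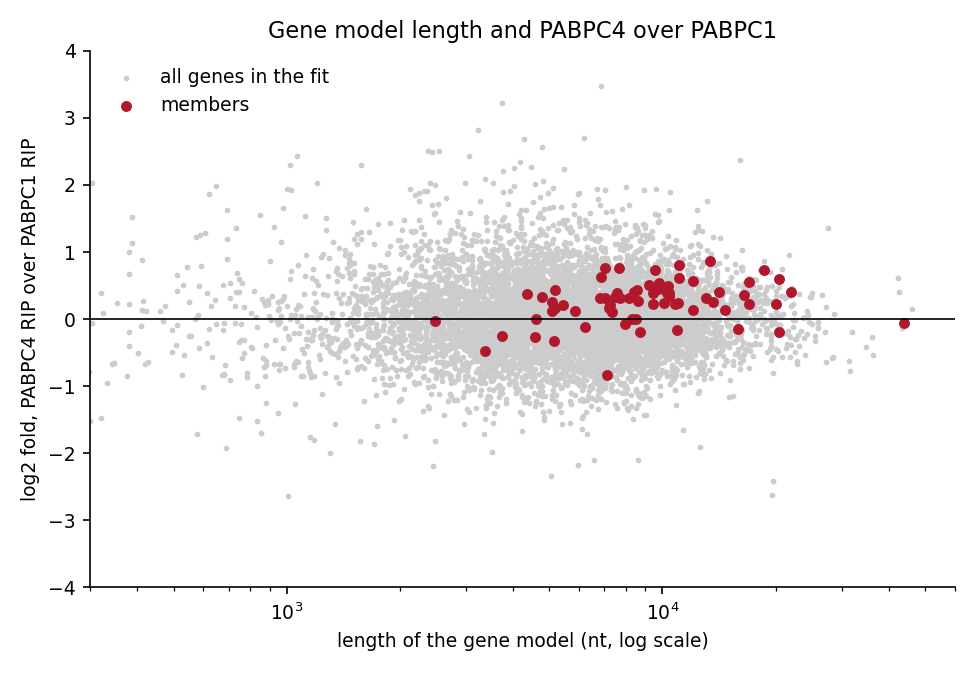
Log2 fold of PABPC4 RIP over PABPC1 RIP (limma voom) against the length of the gene model (nt, log scale) for all genes in the fit (grey) and 68 of the chromatin genes (red); 14 points lie outside the axes. The chromatin genes sit mostly to the right, with a median length of 8727 nt, and mostly above 0.

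A wider list of 225 other chromatin genes, such as acetyltransferases, deacetylases, Polycomb proteins and histone chaperones, was read the same way. By the authors' deposited calls, 46 of 223 were higher with PABPC4 than with IgG and 7 of 220 with PABPC1, against 5.54% and 1.34% of all genes, and 0 were lower with either. At 200 reads or more the PABPC4 calls were 41 of 55, against 66.6% of all genes. Between the RIPs, voom called 12 of 190 higher with PABPC4 and 2 lower, against 2.4% and 2.07% of all genes, with a median log2 fold of 0.15. The 12 included BPTF and RSF1, which partner the ISWI ATPases, with log2 folds of 0.56 ± 0.13 and 0.71 ± 0.18 (limma voom, adjusted p = 0.00465 and 0.0125). ATRX, a remodeller of heterochromatin, was at 0.70 ± 0.16 (adjusted p = 0.00465), and SUPT16H, a subunit of the FACT histone chaperone, at 0.83 ± 0.14 (adjusted p = 0.000123). The 2 lower genes were SP100, a nuclear body protein, at -1.91 ± 0.28, and HDAC8, a deacetylase, at -1.38 ± 0.38 (adjusted p = 1.01e-05 and 0.0267). SP100 had 38 and 50 reads in the PABPC4 RIPs, 27 and 59 in the PABPC1 RIPs, and 3 and 0 in IgG.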

How the data were processed

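Per the labels' protocols, RNA was taken from antibody-bound beads and sequenced. Per the submitters' processing notes, the tools were featureCounts 2.0.1, STAR 2.7.10a and Bowtie2 2.4.1, on hg38, also written GRCh38, with no step given. No source used here states a strand setting for the counting, so overlapping and antisense genes cannot be told apart.

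The authors deposited 2 tables, each with a linear ratio (fold) of RIP over IgG, a p-value and a Benjamini-Hochberg adjusted p-value for 58302 genes, and 0 columns of single libraries. The deposited p-value could be matched as a Yates-corrected chi-square on the summed reads and what remains of each total, so it treats reads as independent and covers counting error only, without variation among replicates. The deposited fold equals the mean RPKM of the RIP over the mean RPKM of IgG plus 0.005. From these identities whole reads, library totals and gene model lengths were recovered; the largest relative error of a recomputed fold was 5.11e-15. Of 22607 genes with a read, 17821 had reads that could be assigned to single libraries. The 2 libraries of a group differed over all genes by a chi-square per degree of freedom of 1.12 for PABPC4, 1.04 for PABPC1 and 1.08 for IgG (p = 4.70e-14, 0.0346 and 0.0605). IgG libraries came from different cell populations per the labels and were counted as 2 samples.

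PABPC4 over PABPC1 was fitted with limma 3.58.1 (voom, eBayes, R 4.3.3) over all 6 libraries with median-of-ratios size factors and a filter of 10 or more reads in 2 or more libraries, called at an adjusted p under 0.05. Against IgG the deposited calls were used, with voom as an alternative. The recovery and the fit were tested on simulated data. Genes named are those called, the 2 with most reads per role, and the 3 highest and 3 lowest folds per comparison among genes with at least 20 reads; BAZ2A and BAZ2B as called genes, BRD9, SMARCB1, SMARCD2, SMARCD3, SMARCE1 and CHD5 as uncalled ones of a counted family, and the examples among the other chromatin genes, were named after their values were seen. Members and lists were chosen with earlier results of these data known. Gene positions are from RefSeq (GRCh38.p14). Protein features were not analysed here, and 1 gene counted with the set is not reported here singly.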

Additional observations from a re-analysis of the deposited data

Results flagged for a closer look

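For 4 genes the fold over IgG differed between the PABPC4 and PABPC1 antibodies by a test of that difference, the limma voom contrast of PABPC4 RIP over PABPC1 RIP. The log2 difference was 0.81 ± 0.18 for SMARCA4, 0.77 ± 0.15 for SMARCC1, 0.76 ± 0.16 for BAZ1B and 0.73 ± 0.21 for SMARCA2 (SE, adjusted p = 0.0036, 0.00114, 0.00203 and 0.0384). In each of these genes both PABPC4 libraries were above both PABPC1 libraries. The genes were called on these same libraries, so this adds no separate support. With 2 libraries a group, the fit borrows most of its estimate of the spread from the other genes.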

How the results depend on the processing

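No paired analysis was possible because the recovered libraries carry no replicate number. With PABPC4 over IgG, 32 chromatin genes were called as deposited. This became 4 under totals of nuclear-encoded genes, under median-of-ratios scaling and under voom with its own size factors (chosen after seeing the data). ARID1B reversed to 0.937-fold with nuclear totals and 0.940-fold with median-of-ratios scaling, which shift all genes alike, and was 1.01-fold in voom with its own size factors. Over all genes the split was 1188 higher and 193 lower as deposited, and 110 higher and 450 lower under median-of-ratios scaling. Leaving out 1 library gave 15 to 32 calls: 15 without IgG A (2.2% of all genes higher) and 21 without IgG B (3.85%). With PABPC1 over IgG, the 2 calls as deposited (1.34% of all genes higher) became 0 under nuclear totals, median-of-ratios scaling and voom with that scaling. They became 4 under Fisher's exact test (1.78% of all genes higher) and 5 among genes with at least 20 reads (8.24%). The share of all genes thus rose with these counts. Leaving out 1 library gave 0 to 3, and both calls as deposited, ARID4B among them, were lost without PABPC1 B, IgG A or IgG B. All genes split 235 to 34 as deposited and 19 to 95 under median-of-ratios scaling. Between the RIPs, the 4 calls became 36 with library totals (13.95% of all genes higher) and 7 with at least 20 reads in 2 libraries (4.75%). They became 9 with the 4 RIP libraries only (4.11%) and 0 with limma-trend (0.226%). Leaving out 1 library gave 0 to 13: 0 without PABPC1 A or B, 13 without PABPC4 B, 7 without IgG B, and 6 without IgG A; without PABPC4 A, 5 were higher and CHD1L was lower. Each of these fits leaves 1 library in a group, and those without PABPC4 A or B cover 4374 and 4367 genes instead of 7957. The share of all genes called higher also rose without PABPC4 A or B and without IgG A or B. The counts from these fits are therefore not comparable with the 4 calls. All genes split 1110 higher to 53 lower with library totals and 191 to 165 as scaled here, and few of them were called without PABPC1 A or B. The same 4 genes were kept in every alternative but limma-trend and the fits without PABPC1 A or B. The median log2 over IgG for PABPC4, 1.27, was 0.28 with nuclear totals and 0.29 with median-of-ratios scaling, and 1.20 to 1.35 with 1 library left out. For PABPC1, 0.50 became -0.0040 and -0.065 under these scalings and 0.66 with at least 50 reads. The median of PABPC4 over PABPC1, 0.76, became 0.28 and 0.37, 0.77 with at least 50 reads, and 0.63 to 0.85 with 1 library left out. IgG depth limits all folds over IgG.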
